A study of Sus scrofa with 12 samples.

Results

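The genes of hepcidin and iron handling are described here in the liver of 12 male crossbred pigs, with 1 Affymetrix porcine array for each pig. Group PIV comprised 6 pigs that received sodium pivalate by mouth at 30 mg per kg of body weight every day, dissolved in a sodium hydrogen carbonate solution. Group CON comprised 6 pigs that received that solution alone. The piglets, a Pietrain x (German Landrace x German Edelschwein) cross, were 5 weeks old at the start, lived in pairs, ate the same diets for 28 days and were killed 2 h after a meal. Of 10 genes listed, HAMP, BMP6, TMPRSS6, TFRC, TF, CP, FTH1 and FTL were found by name, 8 of the 13820 gene symbols in the annotation. TFR2 and SLC40A1 were not found under these symbols and were not analysed here under them.

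Hepcidin, the product of HAMP, is a peptide hormone that hepatocytes secrete. It binds ferroportin, the iron exporter of the cell membrane, and causes its degradation, so that iron is retained in enterocytes, macrophages and hepatocytes. In mice and humans its transcription in the liver is driven by bone morphogenetic proteins acting through SMAD factors, and by interleukin-6 acting through STAT3, while the iron that has entered a cell also acts on ferritin and transferrin receptor through the iron regulatory proteins.

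The values were log2 signals, 1 for each pig and each transcript cluster, which is the group of probes that the array assigns to a gene or locus. Signals of different clusters depend on their probes, so levels were compared between pigs and not between genes. Array medians ranged between 4.75 and 4.88, and the correlation between arrays ranged between 0.977 and 0.991 across clusters. Of 25385 clusters tested with limma, 462 (1.82%) met the filter used here, a fold change (FC) of more than 1.2 up or down together with an unadjusted p under 0.05. Higher in group PIV were 262 (1.03%) and lower 200 (0.788%), and with equal array medians the split was 194 higher and 266 lower. Without pig K42 of group CON the filter took 705 clusters. After Benjamini-Hochberg adjustment in limma 0 passed and the smallest adjusted p was 0.788, whereas 921 had an unadjusted p under 0.05. By the methods' t-test 932 had an unadjusted p under 0.05 and 0 passed after adjustment.

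Among the members, 1 of 8 passed the filter, beside 1.82% of all clusters, and this was HAMP. The median log2 FC of the 8 members was 0.02, beside 0.0059 over all clusters, and 5 of the 8 had a positive log2 FC. The 95% confidence intervals of the other 7 members all included 0 and lay between −0.51 and 0.40. None of the 8 separated the groups without overlap, beside 0.158% of all clusters that did.

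**Figure D1:**
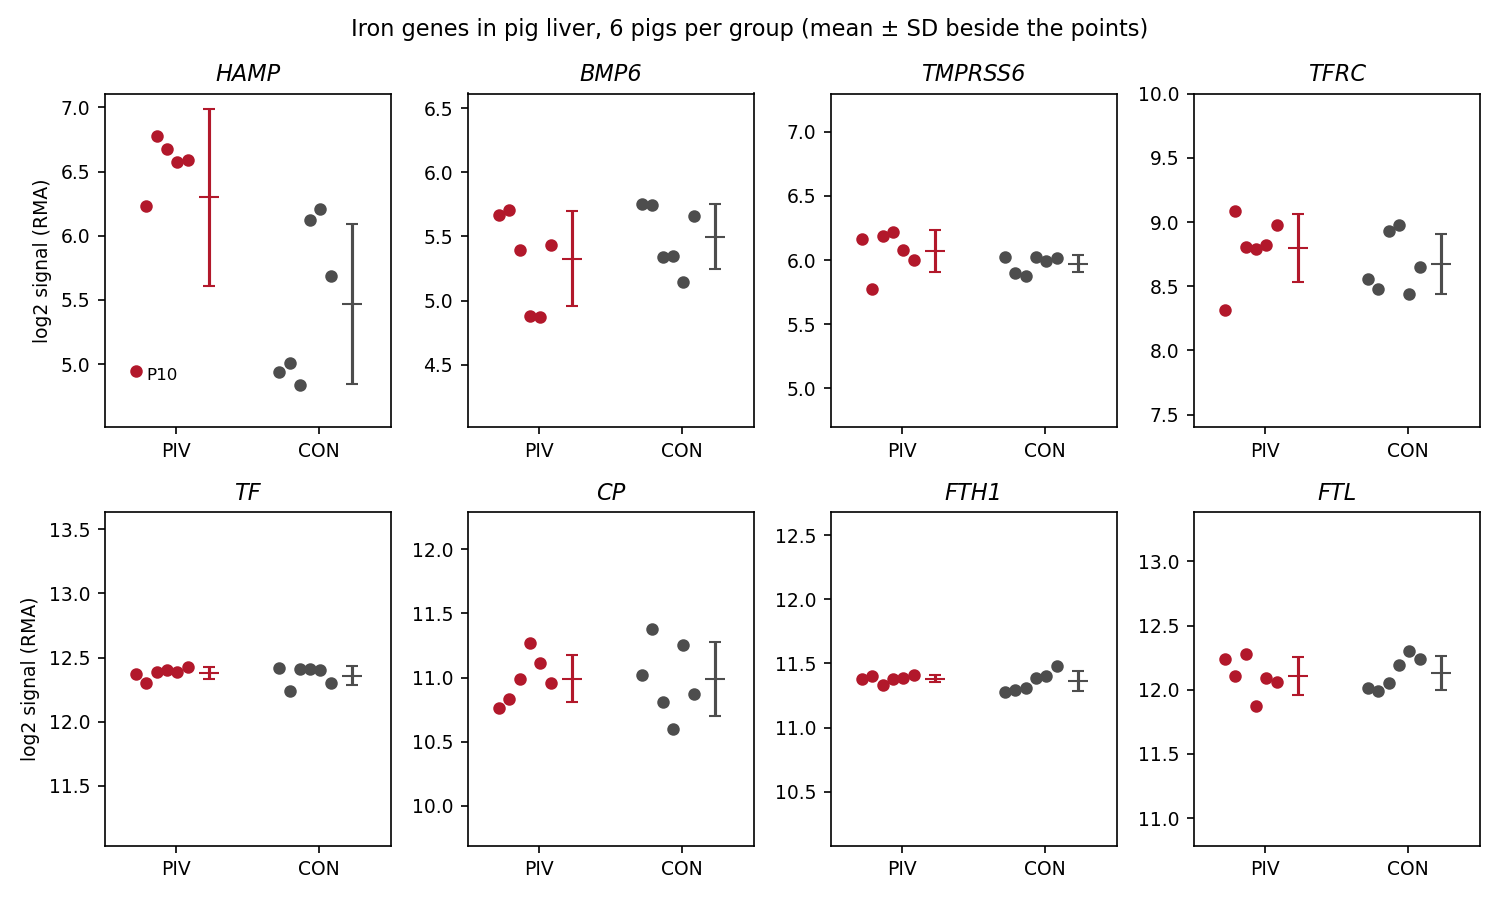
Log2 signal of the 8 members in each pig, with group PIV in red on the left and group CON in grey on the right of each panel; every panel spans the same number of log2 units, and the bars are the mean and SD of 6 pigs. HAMP covered 1.94 log2 units over the 12 pigs, whereas TF and FTH1 lay on nearly the same level in every pig.

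HAMP was measured by 20 probes on chromosome 6 (30040194 to 30041642, plus strand; the sources used here do not give the genome build of the annotation). Its log2 signal was 4.94, 6.23, 6.78, 6.68, 6.57 and 6.59 in the pigs P10, P12, P29, P30, P31 and P50 of group PIV. It was 4.93, 5.01, 4.84, 6.13, 6.21 and 5.69 in the pigs K1, K3, K4, K22, K23 and K42 of group CON. Thus 5 pigs of group PIV lay above every pig of group CON, while P10 lay among the lowest pigs of group CON. The log2 FC was 0.83 (95% confidence interval 0.18 to 1.48, SE 0.31), a FC of 1.78. The unadjusted limma p was 0.0158, the limma p adjusted over all clusters was 1.00, and the exact two-sided permutation test over the pigs gave p = 0.0541 (n = 6 each). The smallest p this test can give with 6 against 6 pigs is 0.00216. Under the methods' t-test the unadjusted p of HAMP was 0.0527, so that the filter was missed.

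The spread of HAMP between pigs was wide within both groups. Its SD within groups was 0.66 log2 units, beside a median of 0.17 over the 11789 clusters with a log2 signal of at least 5 in 6 or more pigs. Only 66 of these clusters (0.560%) had a larger one. Ordered by HAMP, the pigs were separated by a gap of 0.68 log2 units, and the next widest gap was 0.44. Below the gap lay 4 pigs between 4.84 and 5.01, which were P10 of group PIV and K1, K3 and K4 of group CON. Above it lay 8 pigs between 5.69 and 6.78, which were 5 of group PIV and 3 of group CON. The values of the 4 pigs below the gap lay near the array medians, which were 4.75 to 4.88. How well the array resolves levels of HAMP near those medians was not tested. In bulk liver, fewer cells of a type and less RNA per cell cannot be told apart.

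BMP6, the ligand that sinusoidal endothelial cells secrete in response to iron and that drives HAMP, was measured by 12 probes on chromosome 7 (5089872 to 5239771). Its log2 signal was 5.66, 5.71, 5.39, 4.88, 4.87 and 5.44 in group PIV, and 5.76, 5.75, 5.34, 5.34, 5.15 and 5.66 in group CON, in the order of pigs given for HAMP and kept for the genes that follow. The groups overlapped over most of their range, and the 2 lowest values, of P30 and P31, belonged to pigs with high HAMP. The means were 5.33 ± 0.37 in group PIV and 5.50 ± 0.26 in group CON (SD, n = 6 each), with an exact permutation p of 0.390. The log2 FC was −0.17 (95% confidence interval −0.51 to 0.16). A second cluster of 28 probes on chromosome 7 (5477883 to 5501796) also carried the symbol BMP6. Some of its probes match other sites, and it had a log2 FC of −0.09 with an unadjusted limma p of 0.419.

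TMPRSS6 encodes matriptase-2, a hepatocyte protease that lowers HAMP transcription by acting on the BMP pathway at the cell surface. It was named only through its mRNA description, and the match of that mRNA was marked as cross-hybridising, so its value is uncertain. Its cluster of 25 probes was not marked as holding probes that match other sites. Its log2 signal ranged between 5.78 and 6.22 in group PIV and between 5.88 and 6.02 in group CON, so the range of group CON lay wholly within that of group PIV. TMPRSS6 had a log2 FC of 0.10 (95% confidence interval −0.08 to 0.28; unadjusted limma p = 0.255), and the exact permutation test gave p = 0.201.

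TFRC, the transferrin receptor that takes up transferrin-bound iron and whose mRNA is stabilised by the iron regulatory proteins when iron is low, was measured by 38 probes on chromosome 13 (100772881 to 100799950). Its log2 signal was 8.32, 9.09, 8.80, 8.79, 8.82 and 8.98 in group PIV, and 8.56, 8.48, 8.93, 8.98, 8.44 and 8.65 in group CON. The lowest pig of all was P10, which was also the lowest pig of group PIV for HAMP. The groups overlapped and averaged 8.80 ± 0.26 in group PIV and 8.67 ± 0.23 in group CON (SD, n = 6 each). TFRC had a log2 FC of 0.13 (95% confidence interval −0.15 to 0.40; unadjusted limma p = 0.340), and the exact permutation test gave p = 0.381.

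TF encodes transferrin, the iron carrier of the plasma, and CP encodes ceruloplasmin, a copper ferroxidase that oxidises iron for loading onto transferrin. TF ranged between 12.30 and 12.43 in group PIV and between 12.24 and 12.42 in group CON, with a log2 FC of 0.02 (95% confidence interval −0.13 to 0.16) and an exact permutation p of 0.673. The 29 probes of TF lay on chromosome 13 (61524641 to 61679984). The cluster was named through its mRNA description, and the match of that mRNA was marked as cross-hybridising. CP ranged between 10.76 and 11.27 in group PIV and between 10.60 and 11.38 in group CON, on 33 probes of chromosome 13 (72709742 to 72763129). The wider range was that of group CON, and the exact permutation test gave p = 0.970. The 95% confidence interval of the log2 FC of CP was −0.27 to 0.27.

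FTH1 and FTL encode the heavy and the light chain of ferritin, the protein shell that stores iron within the cell. FTH1 ranged between 11.33 and 11.41 in group PIV and between 11.28 and 11.48 in group CON, with a log2 FC of 0.02 (95% confidence interval −0.12 to 0.16) and an exact permutation p of 0.504. FTL ranged between 11.87 and 12.28 in group PIV and between 11.99 and 12.30 in group CON, with a log2 FC of −0.02 (95% confidence interval −0.21 to 0.17) and an exact permutation p of 0.788. The ranges of the groups overlapped almost completely for both chains. FTL was measured by 13 probes on chromosome 6 (37763537 to 37765040), whereas FTH1 had no position in the annotation. FTH1 was named through its mRNA description, and the match of that mRNA was marked as cross-hybridising. The other 8 clusters described as ferritin had log2 FC values between −0.02 and 0.21, and 0 of them passed the filter.

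The members differed widely in how far single pigs departed from their group. TF and FTH1 had SDs within groups of 0.062 and 0.058 log2 units, and 99.4% and 99.5% of the 11789 clusters named above had a larger one. FTL (0.14) and TMPRSS6 (0.13) were also below the median of those clusters, while TFRC (0.25), CP (0.24) and BMP6 (0.32) were above it. BMP6 stood next to HAMP in this order, with 6.61% of the clusters having a larger SD. The clusters were not matched for signal level. How well the array resolves differences at signals as high as those of TF and FTH1 was not tested.

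The iron exporter ferroportin is the target of hepcidin. Its symbol, SLC40A1, was not found, but 2 neighbouring clusters on chromosome 15 relate to it. RefSeq now gives the name SLC40A1 to LOC100737517 (88630640 to 88649909, minus strand, 32 probes), and LOC100512076 (88481117 to 88500597, plus strand, 27 probes) was described as a member of the same solute carrier family. Both are marked as holding probes that match more than 1 site, so the signals of the 2 loci cannot be told apart. LOC100737517 had a log2 signal of 9.54, 9.39, 9.62, 9.50, 9.81 and 9.38 in group PIV and of 9.39, 9.29, 9.14, 9.43, 9.59 and 9.20 in group CON. The groups overlapped, with K23 of group CON below only P31 and P29, and the 2 lowest pigs, K4 and K42, were of group CON. The log2 FC was 0.20 (SE 0.10, unadjusted limma p = 0.0538), the exact permutation test gave p = 0.0606, and the filter was not passed. LOC100512076 had a log2 FC of 0.20 with an unadjusted limma p of 0.0716 and an exact permutation p of 0.0866, and it passed the filter when K23 was left out (0.27).

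**Figure D2:**
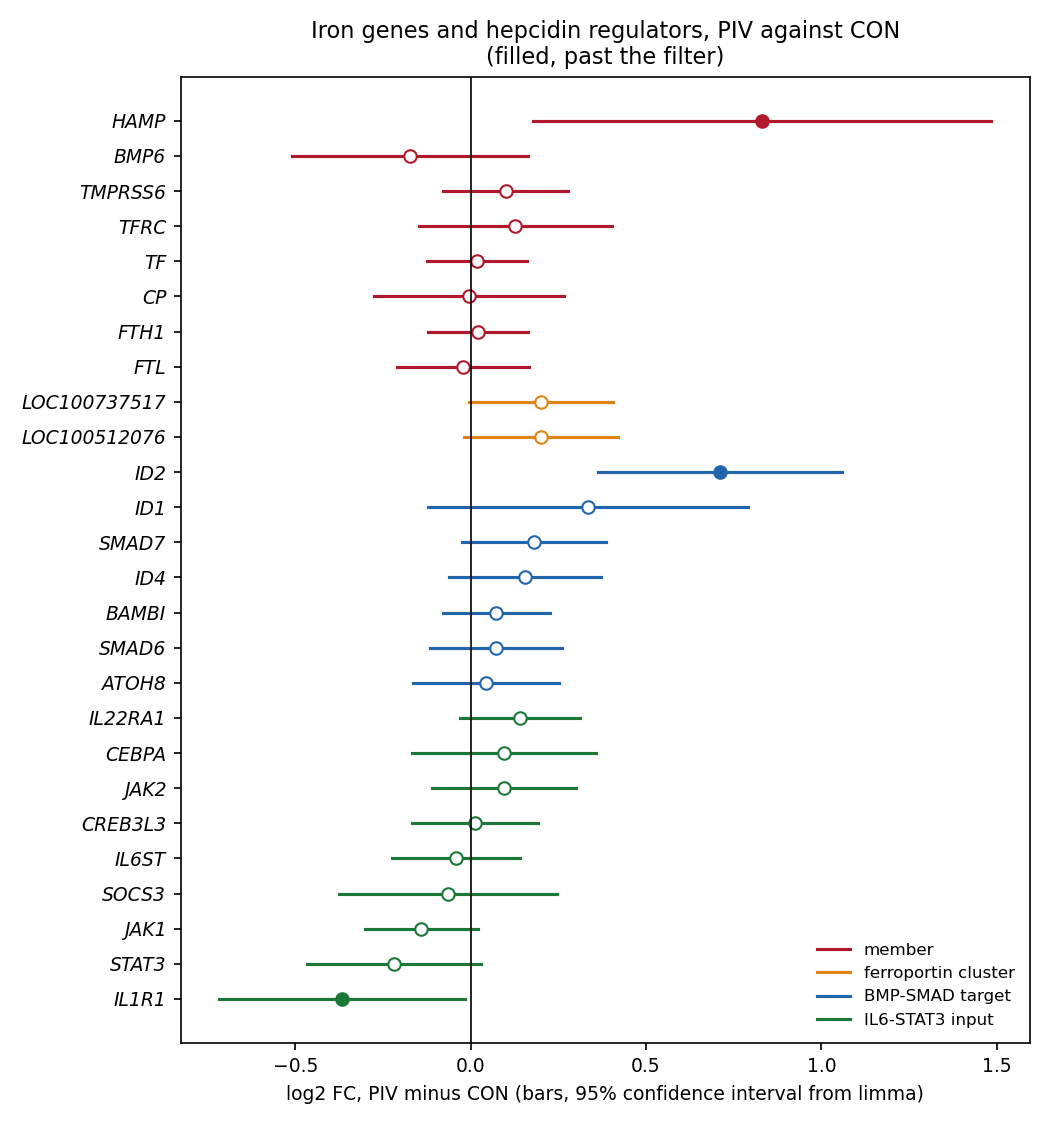
Log2 FC (PIV minus CON) with its 95% confidence interval from limma for the 8 members, the 2 ferroportin clusters, the target genes of BMP-SMAD signalling and the genes of the interleukin-6 input to hepcidin; filled points passed the filter. HAMP, ID2 and IL1R1 are the 3 filled points, at 0.83, 0.71 and −0.37.

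Of the genes listed for the BMP-SMAD input to HAMP, 14 of 15 were measured, and HFE was not found. Among those measured were the coreceptor HJV, receptors, ligands and SMAD factors, and also ERFE and FURIN. Of the 14, 0 were higher and 0 were lower past the filter. Their median log2 FC was 0.03. SMAD1 (0.12), SMAD4 (0.12) and the ligand BMP4 (0.22) had the smallest p of this list, with unadjusted limma p-values of 0.163 or more.

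The target genes of the same pathway were read with 7 of 8 listed genes. Past the filter, 1 was higher and 0 were lower (14.3%, beside 1.82% of all clusters). The median log2 FC was 0.16, beside 0.0059 over all clusters. The gene past the filter was ID2, an inhibitor of helix-loop-helix transcription factors, so the share of this short list rests on 1 gene. Its log2 signal was 8.02 in P10 and between 8.56 and 9.07 in the other 5 pigs of group PIV, and it was 7.86, 8.04, 7.76, 8.05, 8.49 and 7.84 in group CON. As for HAMP, 5 pigs of group PIV lay above every pig of group CON and P10 did not. ID2 averaged 8.72 ± 0.39 in group PIV and 8.01 ± 0.26 in group CON (SD, n = 6 each), with an exact permutation p of 0.00866. Its log2 FC was 0.71 (SE 0.16, 95% confidence interval 0.36 to 1.06), with an unadjusted limma p of 0.000523, and it did not pass after adjustment over all clusters.

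ID1, a close relative of ID2 that is a standard readout of BMP signalling in hepatocytes, did not pass the filter. Its log2 signal was 5.29, 6.14, 6.57, 6.38, 6.20 and 6.20 in group PIV, and 5.49, 5.38, 5.47, 6.52, 6.15 and 5.77 in group CON. The 4 lowest pigs for ID1 were P10, K3, K4 and K1, the same 4 pigs that were lowest for HAMP. The log2 FC was 0.34 (95% confidence interval −0.12 to 0.79; unadjusted limma p = 0.139), and the exact permutation test gave p = 0.221. It passed the filter when P10 (0.50) or K22 (0.48) was left out. SMAD7, an inhibitor that the pathway induces against itself, had a log2 FC of 0.18 (exact permutation p = 0.0909), and ID4 one of 0.16. The other 3 targets, BAMBI, SMAD6 and ATOH8, had log2 FC values between 0.04 and 0.07.

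Of the list for the interleukin-6 input to HAMP, 9 of 11 genes were measured, with a median log2 FC of −0.04. The cytokine gene IL6 and its receptor gene IL6R were not found. Past the filter, 0 were higher and 1 was lower (11.1%, beside 1.82% of all clusters). That 1 gene, IL1R1, does not encode a receptor of interleukin-6. The annotation gave its cluster a LOC identifier, which RefSeq now names IL1R1. IL1R1, a receptor of interleukin-1, had a log2 signal of 8.88, 9.33, 8.79, 8.69, 8.38 and 8.93 in group PIV, and of 8.81, 9.12, 8.82, 9.52, 9.67 and 9.26 in group CON. Only P29, P30 and P31 lay below every pig of group CON. The log2 FC was −0.37 (SE 0.17, 95% confidence interval −0.72 to −0.02; unadjusted limma p = 0.0418), the exact permutation test gave p = 0.0909, and the methods' t-test, with an unadjusted p of 0.0868, did not let it pass. When each pig was left out in turn, IL1R1 passed 5 times of 12. STAT3, the factor through which interleukin-6 acts on HAMP, had a log2 FC of −0.22 (unadjusted limma p = 0.0803, exact permutation p = 0.110). The interleukin-22 receptor chain IL22RA1 had one of 0.14 (unadjusted limma p = 0.101, exact permutation p = 0.0476). The kinase gene JAK1 had a log2 FC of −0.14 (unadjusted limma p = 0.0841, exact permutation p = 0.0260) and did not pass the filter. For JAK1, 5 of 6 pigs of group PIV lay below every pig of group CON. Acute phase proteins, which the same cytokine induces, were measured with 10 of 16 listed genes, of which 0 passed the filter in either direction. SERPINA3-2, a protease inhibitor gene, had log2 signals of 4.96 and 4.48 in K1 and K3 of group CON, whereas all 6 pigs of group PIV and the other 4 of group CON lay between 10.65 and 11.55.

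The iron regulatory proteins, which bind the mRNAs of TFRC and of both ferritin chains, were measured with all 3 listed genes. IREB2 had a log2 FC of 0.13, its degrader FBXL5 one of 0.09 and ACO1 one of 0.07, and 0 of the 3 passed the filter. IREB2 ranged between 7.11 and 7.32 in group PIV and between 6.97 and 7.21 in group CON, with an unadjusted limma p of 0.107 and an exact permutation p of 0.0411.

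For the remaining steps of iron metabolism, 0 genes passed the filter in either direction. These were 11 of 11 listed genes of iron import and reduction, 6 of 6 of ferritin chaperones and release, 10 of 10 of haem scavenging and breakdown, 9 of 9 of haem synthesis, 11 of 13 of mitochondrial iron and iron-sulphur clusters, and 6 of 6 of hypoxia sensing. The medians of these lists lay between −0.09 and 0.02, beside 0.0059 over all clusters. Haem synthesis had the lowest median, with 7 of 9 genes negative, among them UROD (−0.15) and PPOX (−0.10), which encode enzymes of the pathway. The iron-sulphur scaffold gene ISCU had a log2 FC of 0.21 (exact permutation p = 0.0758), the ferric reductase gene STEAP3 one of −0.18, and the importer gene SLC39A14 one of −0.12. Over all lists, 96 of 108 genes were measured and 2 of them (2.08%) passed the filter, near the 1.82% of all clusters, with 48 positive and 48 negative log2 FC values.

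**Figure D3:**
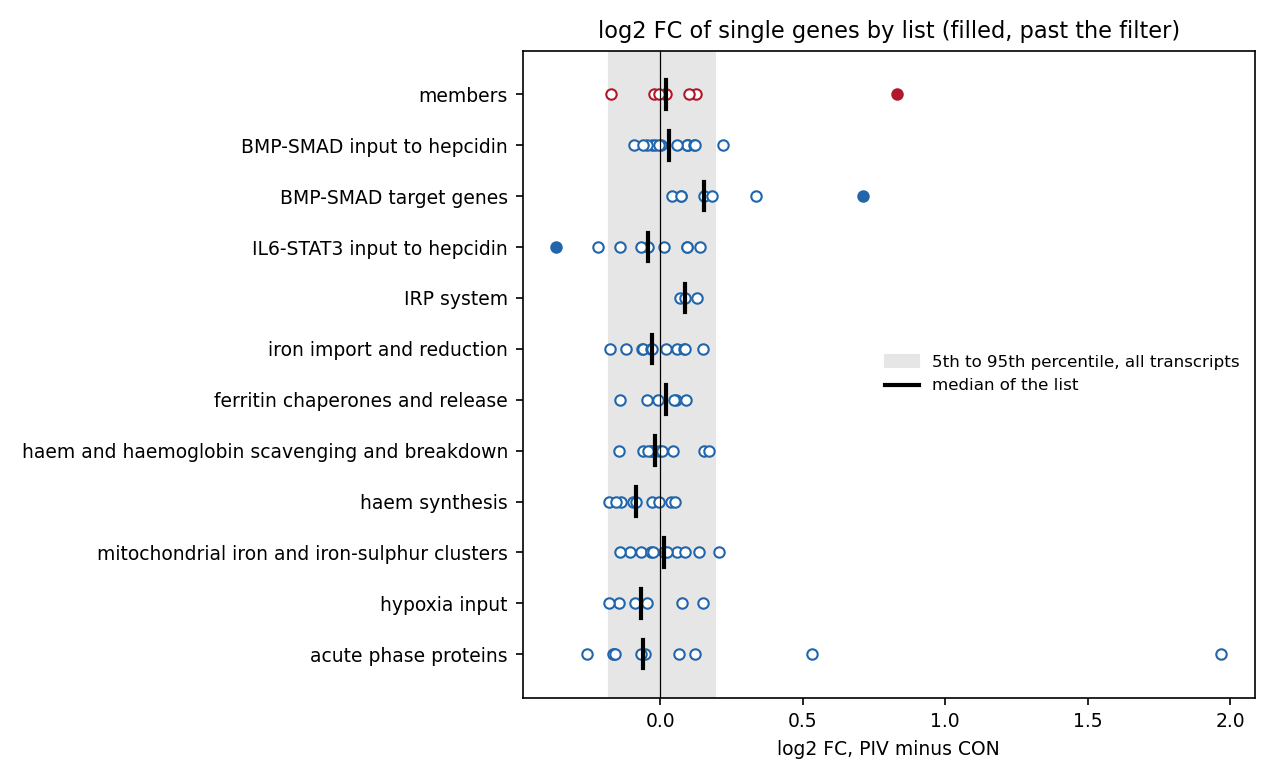
Log2 FC (PIV minus CON) of each measured gene by list, with the median of the list as a black bar and the 5th to 95th percentile of all clusters, −0.18 to 0.19, in grey; filled points passed the filter. HAMP, ID2 and IL1R1 are the filled points, and SERPINA3-2, at 1.97, is open.

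Cell type markers were read to describe the tissue. Of the hepatocyte markers 5 of 7 listed were measured, and ALB, the albumin gene, ranged between 12.82 and 12.91 in group PIV and between 12.78 and 12.88 in group CON. The summed linear signal of the hepatocyte list was between 16730 and 18790 in group PIV and between 16060 and 17540 in group CON, and 0 of its genes passed the filter. For sinusoidal endothelium, the source of BMP6, the sums were 1232 to 1368 in group PIV and 1200 to 1399 in group CON, with 0 of 7 genes past the filter. For Kupffer cells and macrophages the sums were 3022 to 3925 in group PIV and 2992 to 4239 in group CON, with 0 of 9 genes past it. For lymphocytes the sums were 246.8 to 363.5 in group PIV (median 307.2) and 202.3 to 333.3 in group CON (median 244.9), with 6 of 7 genes positive, a median log2 FC of 0.15 and 0 past the filter. For stellate cells (6 measured) the sums were 566.1 to 1129 in group PIV and 593.3 to 1073 in group CON, and for cholangiocytes (4 measured) 178.0 to 250.3 in group PIV and 185.2 to 254.9 in group CON, with 0 genes past the filter in either list. Of 9 erythroid genes 1 was higher past the filter (11.1%, beside 1.82% of all clusters), the transcription factor gene KLF1. Its signal was 3.63 ± 0.23 in group PIV and 3.35 ± 0.18 in group CON (SD, n = 6 each), below the median signal of every array. The erythroid sums were 130.5 to 163.5 in group PIV and 139.6 to 155.2 in group CON. The part of cell composition in the result for HAMP was not tested.

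Which genes followed HAMP from pig to pig was described with Pearson's r over the 12 pigs among 7192 genes with 1 symbol and a log2 signal of at least 5 in 6 or more pigs. These pigs share the 2 groups and the gap in HAMP, so r over 12 pigs reads that split as well. For the genes at both ends the r within the 8 pigs above the gap is given beside it. Within those 8 pigs every pig of group PIV had higher HAMP than every pig of group CON. The r within the 8 pigs therefore still reads the difference between groups. The highest r was that of ID1 (0.94; 0.69 within the 8 pigs), followed by RAB14 (0.90; 0.90), ID2 (0.89; 0.93), HSPB1 (0.88; 0.61) and ZDHHC9 (0.87; 0.78). ID1 and ID2 were among the 7 measured BMP-SMAD targets, of which ID4 (r = 0.67) ranked 207th and SMAD7 (r = 0.57) 487th of the 7192 genes. With each group centred on its mean, the r over the 12 pigs was 0.0053 for SMAD6, 0.22 for ATOH8 and 0.38 for BAMBI. The lowest r were those of RPL5 (−0.93; −0.65), TAF1D (−0.89; −0.64), LOC100517360 (−0.89; −0.72), DNAJC12 (−0.88; −0.72) and METTL2A (−0.88; −0.26). With values centred within each group, ID1 (0.95) stood behind LIN37 (0.95) as the 2nd of 7192 genes, and ID2 (0.85) was the 23rd. LIN37 had an r of −0.59 within the 8 pigs, the opposite sign.

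Among the iron genes themselves, TFRC had an r of 0.49 over the 12 pigs, LOC100737517 of the ferroportin pair one of 0.57, and BMP6 one of −0.61, which was the 328th lowest of the 7192 genes. Within the 8 pigs above the gap the r was 0.23 for TFRC and −0.54 for BMP6. With each group centred on its mean in those 8 pigs, it was −0.37 for TFRC and −0.64 for BMP6. The r of BMP6, the ligand, was thus negative, while those of ID1 and ID2, targets of the pathway it activates, were positive.

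**Figure D4:**
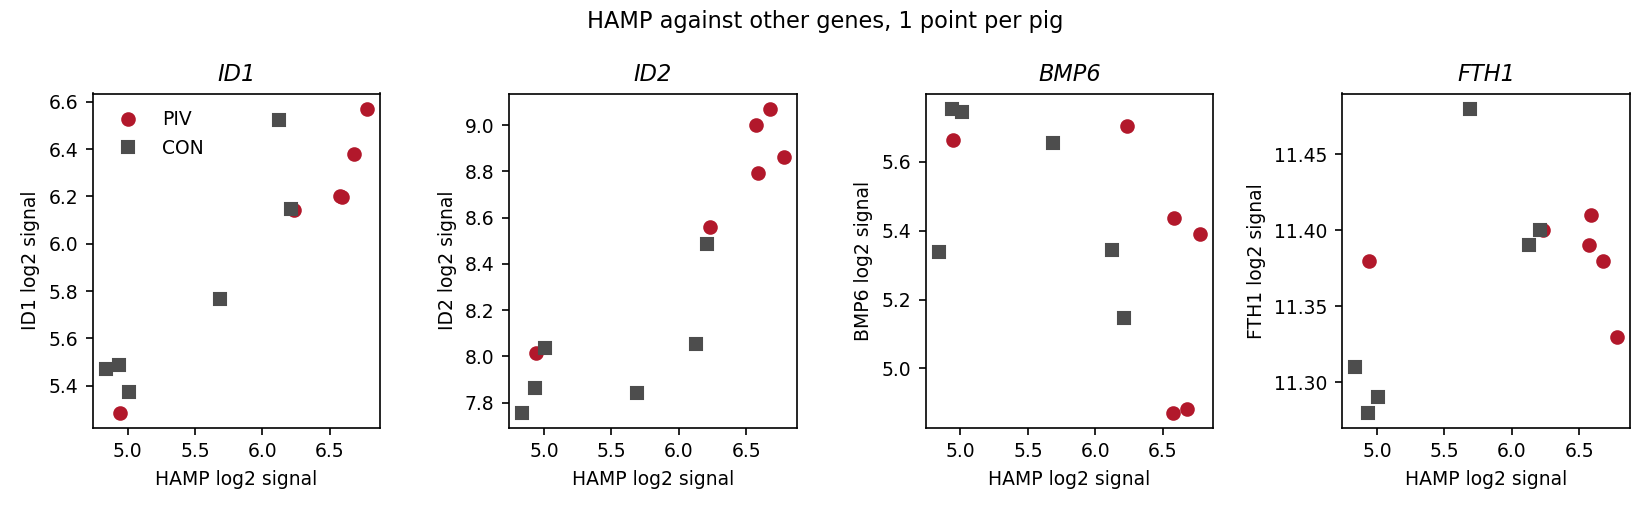
Log2 signals of ID1, ID2, BMP6 and FTH1 against the log2 signal of HAMP, 1 point per pig, with group PIV as red circles and group CON as grey squares. In the panels of ID1 and ID2 the points run upward with HAMP, P10 of group PIV lies among the pigs of group CON with low HAMP, and in the panel of BMP6 they run downward.

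Because HAMP fell in 2 sets of pigs, 15 relations were tested within the 8 pigs above the gap, and no correlation of uncentred values was tested over all 12 pigs. ID2 had r = 0.93 (exact permutation p = 0.000645, adjusted over the 15 relations 0.00967) and rho = 0.88 (exact permutation p = 0.00724, adjusted 0.109). Without the 2 pigs farthest from the median of HAMP, P29 and K42, the r of ID2 was 0.93 over 6 pigs (exact permutation p = 0.00694, adjusted 0.104). The r of ID2 therefore kept its size in the smaller set and did not pass the adjusted threshold there. In both sets every pig of group PIV lay above every pig of group CON, for HAMP and for ID2. These r therefore also read the difference between groups, and the r with each group centred on its mean is given below.

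FTH1 had r = −0.85 (exact permutation p = 0.00402, adjusted 0.0301) and rho = −0.69 (exact permutation p = 0.0694, adjusted 0.492) within the 8 pigs. Without P29 and K42 the r of FTH1 was −0.39 (adjusted 0.706), so that this relation rested on those pigs. Its sign was the opposite over all 12 pigs with each group centred on its mean (r = 0.43, adjusted permutation p = 0.414) and within the 6 pigs of group CON (r = 0.76, adjusted exact permutation p = 0.354). ID1 had r = 0.69 (exact permutation p = 0.0557, adjusted 0.279) and rho = 0.60 within the 8 pigs, and r = −0.10 without P29 and K42. The other 12 relations had adjusted p-values of 0.377 or more, BMP6 among them with r = −0.54. Within the 8 pigs and with each group centred on its mean, 0 of the 15 passed the adjusted threshold, and ID2 had r = 0.80 (adjusted exact permutation p = 0.0950).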

How the data were processed

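Total RNA of 12 livers was hybridised to 1 array each. The authors made the deposited log2 signals in Affymetrix Expression Console (1.4 by the submitters' processing notes) with RMA, which corrects background and normalizes across arrays. The authors' own ratios and p-values in the sheet were not used. Members were matched by gene symbol, or else by the symbol in the mRNA description, taking the cluster with the highest mean, and 3 ribosomal RNA clusters were left out. List genes were matched likewise, or else by a LOC identifier to which RefSeq gives the symbol. PIV was compared with CON by limma 3.58.1 (lmFit, eBayes) in R 4.3.3, with Benjamini-Hochberg adjustment over 25385 clusters. Single genes were also compared over all 924 assignments of pigs to groups (Python 3.11.15), unadjusted. The ranks for rho came from scipy 1.17.1. Scripts were tested on simulated data.

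Members and gene lists were chosen with earlier results of these data known. Named genes were all members, per list those past the filter and up to 3 others with the smallest p, and the 5 genes most and least correlated with HAMP. ALB, BAMBI, SMAD6, ATOH8 and the ferroportin clusters were named in addition, after their values were seen. A gene that this rule would name is not reported here. The sources used here do not give pen or litter. Tests took each pig as independent, although pigs lived in pairs, so p-values may be too small. Sample numbers 1 to 6 were CON and 7 to 12 PIV, so a difference between groups and one between array numbers cannot be told apart. The number of arrays limits the precision.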

Additional observations from a re-analysis of the deposited data

Results flagged for a closer look

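Among 92 sets of 6 pigs examined, 4 held 1 pig far from the others, and chance flags about 1 in 20 such sets. HAMP in P10 of group PIV was 4.94, with the other 5 pigs between 6.23 and 6.78. ID1 in the same pig was 5.29, with the others between 6.14 and 6.57. FTH1 in P29 of group PIV was 11.33, with the others between 11.38 and 11.41. TCIRG1, a proton pump subunit gene of the ferritin list, was 5.91 in K22 of group CON, with the others between 6.02 and 6.07, and that array had the lowest weight of the 12 (0.52).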

How the results depend on the processing

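Results were recomputed with the methods' t-test, limma with a trended prior and robust fit, array weights, only clusters with a log2 signal of 5 or more in 6 pigs, a repeated quantile normalization, array medians made equal, the series' own value table, and without each pig. The log2 FC of HAMP was 0.83 with the methods' t-test, which it did not pass, and with limma passed the filter in all 12 fits without 1 pig, at 0.71 to 1.10. With the methods' t-test 300 of all clusters, 0 members and 1 list gene passed, and array weights also left 1 list gene. The minimum signal left 161 clusters (71 higher, 90 lower). Without 1 pig, 427 to 705 clusters passed (705 without K42 of group CON), 1 to 1 members and 1 to 3 list genes. Of the 15 relations with HAMP, 2 passed in the 8 pigs (ID2 and FTH1), 0 without the 2 farthest pigs, and 2 with centred values of all 12 pigs (ID1, r = 0.95, and ID2, r = 0.85), which still hold the gap in HAMP. Within the 8 pigs HAMP still separated the groups. The log2 FC of CP turned to 0.0194 with quantile normalization and lay between −0.0823 and 0.0739 without 1 pig, that of FTL between −0.0556 and 0.0271, and that of TF between −0.00687 and 0.0341. The cause was not tested.

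IL1R1 passed in 5 of 12 fits without 1 pig and not with the methods' t-test or array weights, and KLF1 in 8 of 12. STAT3 passed without K42 (−0.26), and SERPINA3-2 without K4 or K42 (2.46 each). Over 46 named genes and 870 gene settings, 838 kept direction and side of the filter. No paired analysis was possible because the labels give the groups no shared replicate numbers.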
